A study of Mus musculus with 4 samples.

Results

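The genes described here build and police the protein-folding compartment of the secretory pathway, the endoplasmic reticulum (ER), in Tfh cells (follicular helper T cells), a CD4 subset that drives the germinal centre response of B cells. The set holds 39 genes, chosen by symbol for their role: ER chaperones, folding enzymes, ER-associated degradation, the translocon, and the sensors and transcription factors of the unfolded protein response. The choice was made with earlier results of these data known. All 39 were found among the 23997 genes of the deposited table. Of these, 38 had a mean of 1 FPKM or more over the libraries and were tested, among 11187 genes in all. The unit, FPKM, is a fragment count divided by transcript length and by library size, so levels can be compared between genes.

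The groups were 2 libraries of wild-type (WT) and 2 of Apoe-/- mice; the latter lack apolipoprotein E and are prone to high plasma cholesterol and atherosclerosis. All mice were 13 weeks old and of strain C57BL/6, and lymph nodes and spleens were the source of the cells. The labels give no sorting scheme and do not say whether a library is 1 animal or a pool, so p-values rest on a spread between libraries that may be only technical. Apoe, the targeted gene, was at 145 and 128 FPKM in the WT libraries and at 5.09 and 5.21 FPKM in the Apoe-/- libraries. The T cell gene Cd3e was at 281 to 315 FPKM, Cd4 at 365 to 408, and the Tfh genes Cxcr5 and Bcl6 at 162 to 223 and at 94.1 to 116. B cell genes were present too, Cd79a for example at 59.0 to 98.3 FPKM. Read depth is unknown, and FPKM totals were 522371 and 527056 in WT and 533866 and 551289 in Apoe-/- libraries.

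Proteins bound for the cell surface or for secretion enter the ER through the Sec61 translocon and fold there with the help of the HSP70 chaperone BiP, the HSP90 chaperone GRP94, the lectin chaperones calreticulin and calnexin, and disulfide isomerases. Misfolded proteins are returned to the cytosol for degradation by the proteasome. When unfolded proteins pile up, the sensors IRE1, PERK and ATF6 start the unfolded protein response. ATF6 and XBP1 then raise transcription of the chaperone genes, in large part through promoter elements called ERSE (ER stress response element), to which they bind beside the CCAAT-binding factor NF-Y. In cells of the B lineage the same genes carry the load of antibody secretion, and Xbp1 is required for plasma cells.

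Because many of the genes had lower values in Apoe-/- cells, as given further on, their promoters were read for these elements. RefSeq promoters (build GRCm38.p6, 250 bases before to 50 after each annotated start) were listed for 32 of the 39 genes; Manf, Derl1, Hyou1, Mzb1, Ssr2, Atf6 and Sec61a1 had no entry. The ERSE, searched on both strands as CCAAT and CCACG with 9 bases between, was present in 9 of the 32 genes (28.1%), against 37 of all 27025 genes with a listed promoter (0.137%). The ERSE-II, ATTGG and CCACG with 1 base between, was present in 2 (6.25%, against 0.0444% of all genes with a promoter), and the UPRE, TGACGTGG, in Txndc5 alone of the set (3.12%, against 0.714%). The ERSE and ERSE-II letters can overlap each other only in part, and no gene of the set held both. A match describes the letters in this window and does not show that the element is used. The set was chosen for genes of this response, so shares above those of all genes follow from that choice. They carry no information on the genotypes. The stretches upstream of 4 genes are shown because BiP (Hspa5) and GRP94 (Hsp90b1) are the textbook targets of the response and Calr and Sdf2l1 are the genes that passed the test below. They are written 5′ to 3′ on the strand of the gene and end at the base before the start, with the fixed letters of each ERSE in capitals. Their positions are chr2:34771940-34772089 on the plus strand for Hspa5, and chr10:86705445-86705664, chr8:84846932-84847101 and chr16:17132384-17132533 on the minus strand for Hsp90b1, Calr and Sdf2l1.
Hspa5: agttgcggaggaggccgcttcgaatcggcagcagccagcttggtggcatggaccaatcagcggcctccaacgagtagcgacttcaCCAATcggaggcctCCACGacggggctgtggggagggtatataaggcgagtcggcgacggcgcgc
Hsp90b1: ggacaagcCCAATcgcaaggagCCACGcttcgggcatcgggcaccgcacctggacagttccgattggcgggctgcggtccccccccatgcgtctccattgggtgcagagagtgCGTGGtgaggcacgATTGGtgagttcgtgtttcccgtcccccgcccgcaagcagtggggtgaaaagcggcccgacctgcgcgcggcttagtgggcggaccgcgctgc
Calr: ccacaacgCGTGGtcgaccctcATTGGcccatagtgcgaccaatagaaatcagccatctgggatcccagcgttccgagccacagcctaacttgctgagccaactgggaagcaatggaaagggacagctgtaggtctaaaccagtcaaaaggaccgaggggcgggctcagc
Sdf2l1: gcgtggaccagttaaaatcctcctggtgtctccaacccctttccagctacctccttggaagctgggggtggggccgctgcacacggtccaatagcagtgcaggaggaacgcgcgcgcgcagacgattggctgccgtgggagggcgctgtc
In these exact letters Hspa5 held 1 ERSE, at -65 to -47 counted from the start. Hsp90b1 held 2 in opposite orientation, at -212 to -194 and at -107 to -89. Near matches with changed letters were not searched, so a promoter can hold more sites than are marked. Calr held 1, in reverse orientation at -162 to -144. The Sdf2l1 window held none of the 3 elements in these letters.

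The elements of the other 8 genes follow, also as read on the strand of the gene, because they carry the split by promoter element made below; capitals again mark the fixed letters. The first 6 are ERSE, those of Creld2 and Derl3 in reverse orientation, and those of Herpud1 and Dnajb11 are ERSE-II.
Pdia6: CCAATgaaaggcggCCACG
Syvn1: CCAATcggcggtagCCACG
Creld2: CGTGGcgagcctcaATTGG
Canx: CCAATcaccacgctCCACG
Derl3: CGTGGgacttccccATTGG
Dnajc3: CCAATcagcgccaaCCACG
Herpud1: ATTGGgCCACG
Dnajb11: ATTGGcCCACG
They lie at chr12:17266491-17266509, chr19:6046532-6046550, chr15:88819520-88819538, chr10:75893242-75893260, chr14:118937827-118937845, chr8:94386377-94386387 and chr16:22857852-22857862 on the plus strand, and at chr11:50325800-50325818 on the minus strand for Canx. That of Dnajb11 begins after the annotated start, at position 8 to 18 of the transcript.

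Sdf2l1 and Calr fell in Apoe-/- cells, and 36 of the 38 tested genes did not pass the test. The test was limma on log2(FPKM + 1), two-sided, and a call needed p under 0.05 after Benjamini-Hochberg adjustment across the 11187 genes. Over all tested genes 0.885% were called lower and 0.948% higher. None of the 38 was called higher by limma, and none was higher at an unadjusted p under 0.05, where 11.6% of all genes were. At that unadjusted level 17 of the 38 (44.7%) were lower, against 8.27% of all genes. The difference of log2(FPKM + 1), Apoe-/- minus WT, was below 0 for 32 of the 38 genes, with a median of -0.26 over the 38 and of 0.00029 over all tested genes. Both Apoe-/- libraries lay below both WT libraries for 23 of the 38 (60.5%), against 22.9% of all tested genes, and above them for 4 (10.5%), against 27.5%. These counts describe genes that share regulators and are not independent of each other. Since the set was chosen with earlier results of these data known, the shares are a description and not a test. In bulk RNA, fewer cells of a type and less RNA per cell cannot be told apart.

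The libraries numbered 1 and those numbered 2 shared steps in their low FPKM values: 19.0% of genes at 0.001 to 0.15 FPKM in the number 1 pair and 18.8% in the number 2 pair had a single common ratio (within 0.04 on the log2 scale), against 4.53% to 6.44% in the other 4 pairs. Differences within each number are therefore given too. The median over the 38 genes was -0.29 within number 1 and -0.29 within number 2, and 29 of the 38 were lower within both (76.3%, against 39.5% of all tested genes). The members span a wide range of levels. Hspa5 ranked between 102 and 141 among all 23997 genes of each library, while Derl3, at a mean of 2.29 FPKM in WT, was the lowest that was tested and Fkbp11 fell short of the filter.

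**Figure D1:**
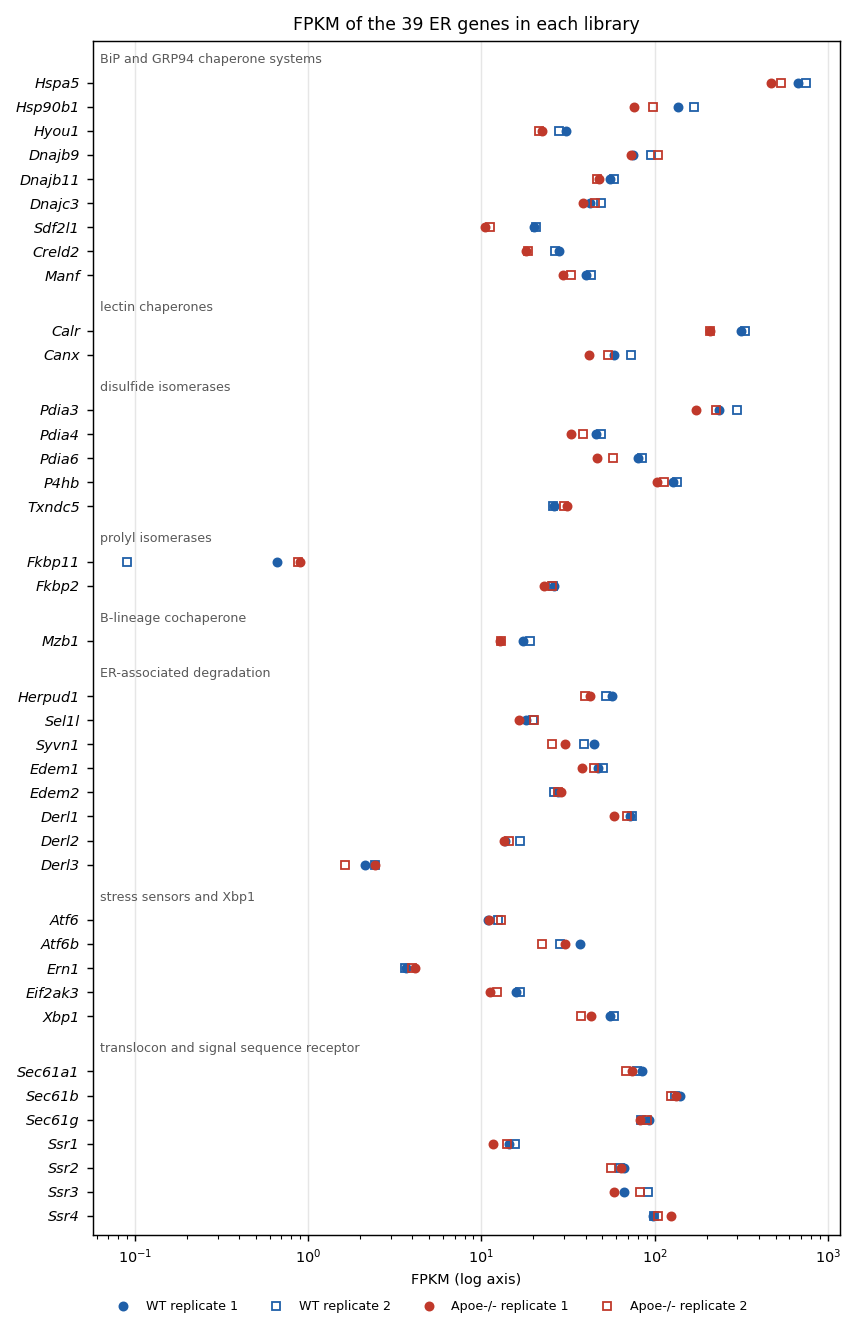
FPKM on a log axis for the 39 ER genes in each of the 4 libraries, ordered by role; WT in blue and Apoe-/- in red, filled circles for replicate 1 and open squares for replicate 2. Hspa5 is at 670 and 748 FPKM in WT and at 469 and 538 FPKM in Apoe-/- libraries, and the libraries mix for the translocon genes Sec61b and Sec61g.

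The BiP and GRP94 chaperone systems held 9 genes, of which 1 fell and 8 did not pass, with a median log2 difference of -0.42. Sdf2l1 encodes a small ER protein that works with BiP and its DNAJB11 cochaperone. It was at 20.2 and 20.6 FPKM in WT and at 10.5 and 11.1 FPKM in Apoe-/- libraries. The Apoe-/- libraries were thus both far below the WT libraries, and the libraries of each genotype lay close together. From 20.4 ± 0.257 FPKM (SD, n = 2) Sdf2l1 fell to 10.8 ± 0.446 FPKM, 1.88-fold, with a log2 difference of -0.86 ± 0.11 SE (limma adjusted p = 0.0323; -0.88 within number 1 and -0.83 within number 2). Sdf2l1 lies at chr16:17130138-17132383 (GRCm38). Its call was lost when WT replicate 1 or WT replicate 2 was left out (adjusted p = 0.103 and 0.121) and with no FPKM filter (0.0672), and its adjusted p ran from 0.00193 to 0.121 over the settings.

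Hspa5 encodes BiP, the most abundant gene of the set, at chr2:34772090-34776529. It was at 670 and 748 FPKM in WT and at 469 and 538 FPKM in Apoe-/- libraries, so the groups did not overlap. The log2 difference was -0.49 ± 0.11 SE and did not pass (limma adjusted p = 0.0949; 95% interval -0.76 to -0.23 before adjustment; -0.51 and -0.47 within numbers 1 and 2). Hsp90b1, which encodes GRP94, at chr10:86690841-86705444, was at 137 and 170 FPKM in WT and at 76.3 and 98.0 FPKM in Apoe-/- libraries. The WT mean was 1.76 times the Apoe-/- mean, the second largest difference of the set at -0.81 ± 0.17, although the libraries of each genotype also differed among themselves and the gene did not pass (adjusted p = 0.0887). Within each genotype, replicate 2 was the higher library for both genes. Without Apoe-/- replicate 2, Hspa5, Hsp90b1, Pdia6 and Pdia3 passed as well as Sdf2l1 and Calr, with the lone Apoe-/- library assumed to vary like the WT ones.

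Creld2 and Manf encode secreted or ER-resident proteins that are induced by ER stress. Creld2 was at 27.9 and 26.6 FPKM in WT and at 18.1 and 18.6 FPKM in Apoe-/- libraries (log2 difference -0.55 ± 0.10, adjusted p = 0.0755). Manf was at 40.3 and 43.0 FPKM and at 29.5 and 32.8 FPKM. Hyou1, a nucleotide exchange factor of BiP, was at 31.0 and 28.2 FPKM and at 22.3 and 21.5 FPKM (-0.42 ± 0.11, adjusted p = 0.124). None of these 3 passed, and for each of them both Apoe-/- libraries lay below both WT libraries. The J-domain cochaperones, which hand clients to BiP, were less alike. Dnajb11 was at 55.5 and 58.5 FPKM in WT and at 47.8 and 46.4 FPKM in Apoe-/- libraries. Dnajc3 (log2 difference -0.12) and Dnajb9 (0.04), whose products also act back on the sensors, had groups that overlapped. The Dnajb9 difference was -0.05 within number 1 and 0.13 within number 2.

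Both lectin chaperones, which hold newly made glycoproteins until they fold, had lower values in Apoe-/- cells, and 1 of the 2 passed. Calr, which encodes calreticulin, was at 315 and 334 FPKM in WT and at 210 and 209 FPKM in Apoe-/- libraries. From 325 ± 13.5 FPKM (SD, n = 2) it fell to 209 ± 0.281 FPKM, 1.55-fold, with a log2 difference of -0.63 ± 0.08 SE (limma adjusted p = 0.0373; -0.59 within number 1 and -0.67 within number 2). The Apoe-/- libraries were nearly equal and well below both WT libraries. Calr lies at chr8:84842088-84846931. Its call was lost when WT replicate 1 or WT replicate 2 was left out (adjusted p = 0.111 and 0.180), with no FPKM filter (0.0726) and without the mean-variance trend (0.0592), over a range of 0.00122 to 0.180. Canx, the membrane-bound calnexin, was at 58.6 and 73.2 FPKM in WT and at 42.0 and 53.9 FPKM in Apoe-/- libraries and did not pass (-0.45 ± 0.17, adjusted p = 0.229).

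Of the 5 disulfide isomerases, which form and rearrange disulfide bonds, none passed by limma. At an unadjusted p under 0.05, 3 were lower (60%, against 8.27% of all tested genes) and none higher (11.6% of all tested genes). Pdia6 was at 79.9 and 84.8 FPKM in WT and at 46.8 and 57.4 FPKM in Apoe-/- libraries (log2 difference -0.66 ± 0.13, adjusted p = 0.0827; -0.76 and -0.55 within numbers 1 and 2). Pdia4 was at 45.7 and 49.3 FPKM and at 32.9 and 38.6 FPKM (-0.41 ± 0.12, adjusted p = 0.157). P4hb, the founding member of the family, and Pdia3, the partner of the lectin chaperones, had WT means 1.21 and 1.34 times their Apoe-/- means. Txndc5 stood on the other side: it was at 26.2 and 26.0 FPKM in WT and at 31.2 and 30.1 FPKM in Apoe-/- libraries (0.22 ± 0.10, adjusted p = 0.287). It is a family member that plasma cells make in large amounts, and it was the tested gene with the highest difference of the set. The prolyl isomerase Fkbp2 had a difference of -0.10, with WT replicate 2 and Apoe-/- replicate 2 at 25.9 and 25.7 FPKM. Fkbp11, another prolyl isomerase of secretory cells, was at 0.664 and 0.0895 FPKM in WT and at 0.900 and 0.872 FPKM in Apoe-/- libraries and was not tested.

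**Figure D2:**
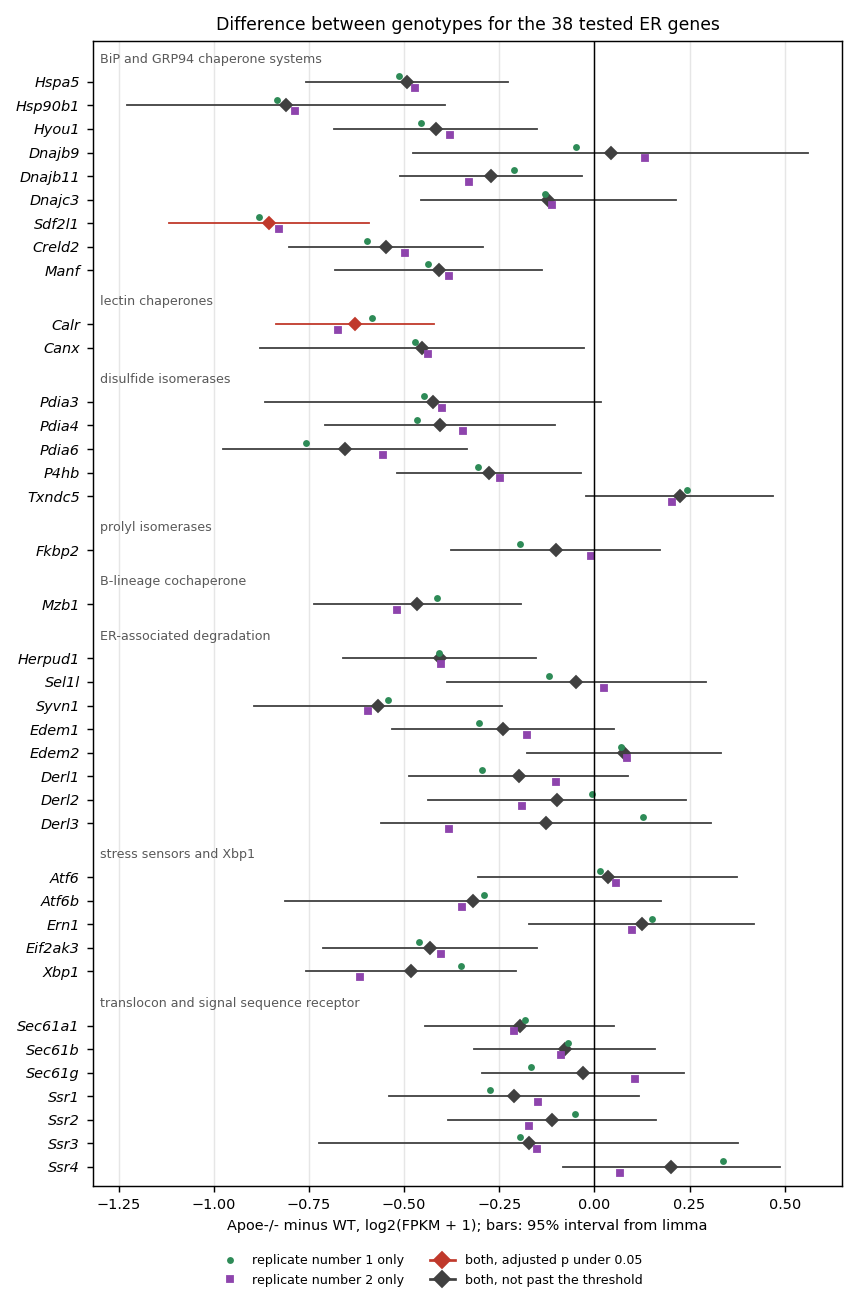
Difference of log2(FPKM + 1), Apoe-/- minus WT, for the 38 tested ER genes (diamonds, with the 95% interval from limma before adjustment), and the same within replicate number 1 (circles) and 2 (squares). Red marks Sdf2l1 (-0.86) and Calr (-0.63), which passed; most other chaperones lie left of 0 and the translocon genes close to it.

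The sensors and Xbp1 differed from each other in their values, and none of these 5 genes passed by limma. At an unadjusted p under 0.05, 2 were lower (40%, against 8.27% of all tested genes) and none higher (11.6% of all tested genes). Xbp1, whose mRNA is spliced by IRE1 to give the active transcription factor, was at 55.0 and 58.5 FPKM in WT and at 42.9 and 37.9 FPKM in Apoe-/- libraries (log2 difference -0.48 ± 0.11, adjusted p = 0.102; -0.35 and -0.62 within numbers 1 and 2). The table has 1 value per gene, so spliced and unspliced Xbp1 were not separated. Eif2ak3, which encodes PERK, was at 15.8 and 16.7 FPKM and at 11.2 and 12.4 FPKM (-0.43 ± 0.11, adjusted p = 0.129). For both genes the Apoe-/- libraries lay below the WT libraries. Ern1, which encodes IRE1, was at 3.65 and 3.64 FPKM in WT and at 4.16 and 3.96 FPKM in Apoe-/- libraries (0.12 ± 0.12, adjusted p = 0.603; 95% interval -0.17 to 0.42). Atf6 was at 10.9 and 12.5 FPKM and at 11.0 and 13.1 FPKM (0.03 ± 0.14, adjusted p = 0.914; 95% interval -0.31 to 0.38), with groups that overlapped. Atf6b, its paralog, had a difference of -0.32 and groups that also overlapped.

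Of the 8 genes of ER-associated degradation none passed by limma. At an unadjusted p under 0.05, 2 were lower (25%, against 8.27% of all tested genes) and none higher (11.6% of all tested genes). The 2 were Syvn1 and Herpud1. Syvn1 encodes HRD1, the ubiquitin ligase of the pathway, and was at 44.7 and 39.4 FPKM in WT and at 30.4 and 25.7 FPKM in Apoe-/- libraries (log2 difference -0.57 ± 0.13, adjusted p = 0.102). Herpud1, which organizes the HRD1 complex, was at 56.6 and 52.7 FPKM and at 42.4 and 39.6 FPKM (-0.41 ± 0.10, adjusted p = 0.120). The groups did not overlap for either gene. Sel1l, the membrane partner of HRD1, was at 18.1 and 19.8 FPKM in WT and at 16.5 and 20.2 FPKM in Apoe-/- libraries, and its difference was -0.05. The mannosidase-like genes Edem1 and Edem2, which mark glycoproteins for disposal, had differences of -0.24 and 0.08. Derl1, Derl2 and Derl3, which encode membrane proteins of the exit channel, had differences of -0.20, -0.10 and -0.13, and those within the numbers were 0.13 and -0.38 for Derl3.

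The translocon and its associated signal sequence receptor had a median difference of -0.11. None of these 7 genes passed by limma or had an unadjusted p under 0.05. Over all tested genes 8.27% were lower and 11.6% higher at that level. Sec61b, a subunit of the channel, was at 140 and 131 FPKM in WT and at 133 and 124 FPKM in Apoe-/- libraries (log2 difference -0.08 ± 0.09, adjusted p = 0.689; 95% interval -0.32 to 0.16). Sec61a1, the pore, had a difference of -0.20 and Sec61g one of -0.03. Of the receptor subunits, Ssr1, Ssr2 and Ssr3 had -0.21, -0.11 and -0.17. Both Apoe-/- libraries lay below both WT libraries for Sec61a1 and Ssr1, 2 of the 7 genes (28.6%, against 22.9% of all tested genes). Ssr4 was at 97.8 and 99.7 FPKM in WT and at 124 and 104 FPKM in Apoe-/- libraries, above WT in both. Whether the chaperones and the translocon differ from each other in their response was not tested.

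When the genes were split by promoter element, the 11 with an ERSE or ERSE-II all had differences below 0. These ran from -0.81 for Hsp90b1 to -0.12 for Dnajc3, with a median of -0.49. For Dnajc3 and Derl3 the libraries of the genotypes overlapped. Of the 20 tested genes with a listed promoter and neither element, 15 were below 0 and the median was -0.14, with Sdf2l1 at -0.86 the lowest. Each of these groups held 1 gene that passed, and the 7 genes of the set without a listed promoter were in neither group. Outside the set, 38 genes held an ERSE or ERSE-II, of which 12 were tested: 6 were below 0, none passed by limma (1 was lower and 1 higher at an unadjusted p under 0.05), and the median was 0.014. Over all tested genes 8.27% were lower and 11.6% higher at that level. Among the 12 were Ero1b, an ER oxidase that the table lists under its older symbol Ero1lb (-0.40), and Alg12, an ER mannosyltransferase (-0.16). Krtcap2, of the oligosaccharyltransferase, had -0.0019, and Nucb1, a calcium-binding protein of the Golgi, 0.03. Pan2, the 1 that was higher at the unadjusted level, had 0.38. These splits were made with the differences known and carry no test. Genes with neither element can still hold near matches, which were not searched.

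**Figure D3:**
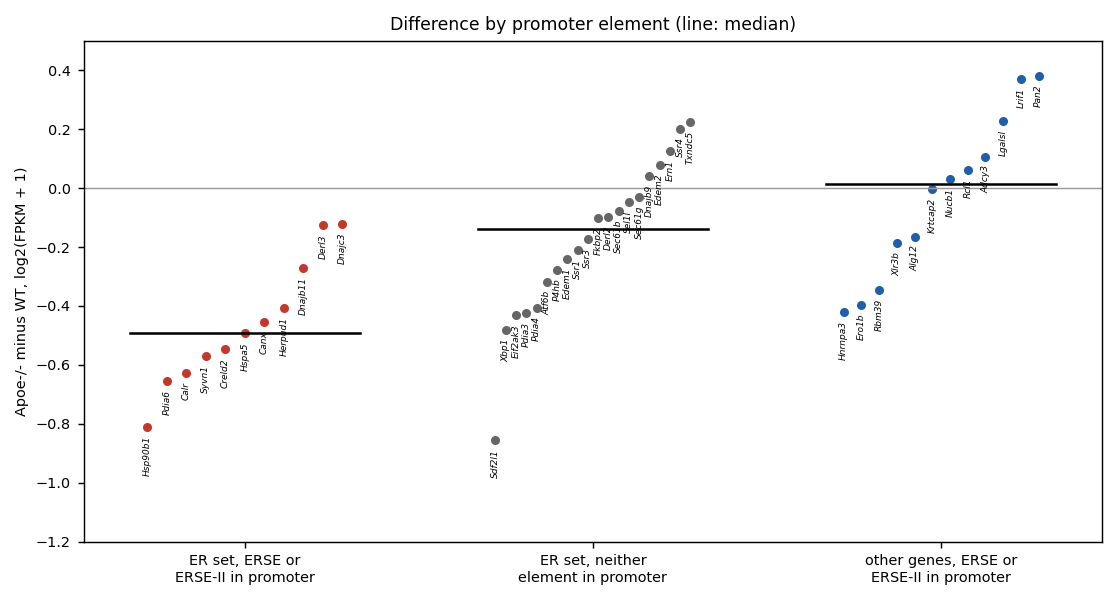
Difference of log2(FPKM + 1), Apoe-/- minus WT, for single genes in 3 groups: ER genes with an ERSE or ERSE-II in the promoter window, ER genes with neither, and other tested genes with either element; black lines are medians, -0.49, -0.14 and 0.014. All 11 ER genes with an element lie below 0, and for Dnajc3 and Derl3 among them the libraries of the genotypes overlapped. The 7 ER genes without a listed promoter are not shown.

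Other genes of the pathway, 126 symbols in 7 lists, had a median difference nearer to 0. Of the 126, 125 were found and 117 tested, and none passed by limma in either direction. At an unadjusted p under 0.05, 9 were lower (7.69%), about the share of all tested genes (8.27%). At that level 3 were higher, where 11.6% of all tested genes were. The median difference was -0.07. The PERK-ATF4 branch, which halts translation and induces amino acid genes, had 17 tested genes with a median of -0.09. At an unadjusted p under 0.05, 3 of them were lower (17.6%, against 8.27% of all tested genes) and none higher. These 3, named here after their values were seen, were Sesn2, a stress-induced regulator of growth signalling (log2 difference -0.65), Asns, the asparagine synthetase (-0.46), and the transcription factor Atf3 (-0.44), each with both Apoe-/- libraries below both WT libraries. At the other end Cebpb, also a transcription factor, had a difference of 0.56, and its groups overlapped. Atf4, its transcription factor, was at 353 and 355.5 FPKM in WT and at 377 and 378 FPKM in Apoe-/- libraries (log2 difference 0.09, adjusted p = 0.555). Ddit3, which encodes CHOP, was at 34.8 and 32.4 FPKM and at 30.7 and 28.3 FPKM (-0.18, adjusted p = 0.409). Ppp1r15a, which encodes the phosphatase subunit GADD34, was at 414 and 385 FPKM and at 356 and 338 FPKM (-0.20, adjusted p = 0.273). For Ddit3 and Ppp1r15a the Apoe-/- libraries lay below the WT ones, and for Atf4 above. Trib3, a pseudokinase induced by CHOP, had a difference of 0.02 at under 2 FPKM in all libraries.

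Further along the secretory route, the oligosaccharyltransferase list, which attaches N-glycans, had a median of -0.13, with all 11 tested genes below 0. Signal peptidase, signal recognition particle and further translocon genes had -0.15 over 18 genes. The medians were -0.11 over 23 genes of ER redox and further isomerases, -0.06 over 22 further degradation genes and -0.02 over 7 genes of ATF6 processing and the CREB3 family. COPII and KDEL receptor genes, which carry cargo from the ER to the Golgi and return ER residents, had 0.00076 over 19 genes. The share of genes with both Apoe-/- libraries below both WT libraries was 32.5% over the 7 lists together, against 22.9% of all tested genes and 60.5% in the ER set.

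**Figure D4:**
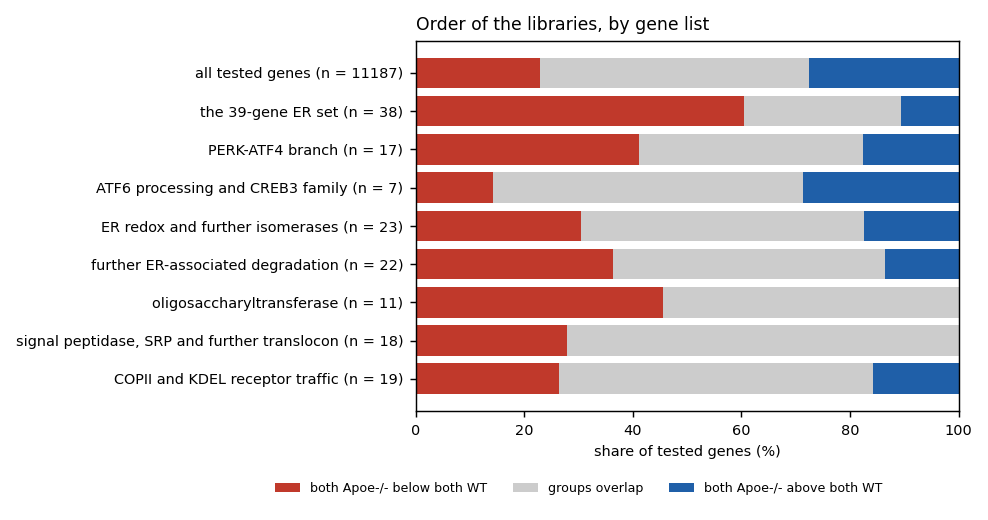
Share of tested genes, in percent, whose Apoe-/- libraries both lay below both WT libraries (red), overlapped with them (grey) or both lay above (blue), for all tested genes, the ER set and 7 other lists of the pathway. The red share is 22.9% for all tested genes and 60.5% for the ER set.

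B cell markers moved in the same direction in the same libraries. Of 11 tested B cell markers, 4 fell (Cd22, Fcer2a, Cr2 and Blnk), none rose and the median log2 difference was -0.75. By unadjusted p under 0.05, 10 of the 11 were lower (90.9%) and 1 was higher. The shares lower were 44.7% in the ER set and 8.27% over all tested genes. For 10 of the 11 markers (90.9%) both Apoe-/- libraries lay below both WT libraries, against 60.5% in the ER set and 22.9% of all tested genes. The Fcer2a call held in all 14 alternatives, whereas those of Cd22 and Blnk ended without either WT library or the FPKM filter, and that of Cr2 without WT replicate 2 or with another filter (adjusted p = 0.0565 to 0.123 over these). Their summed level was 333 and 329.8 FPKM in WT and 216 and 210.1 FPKM in Apoe-/- libraries, and none of them was at 0 in any library. The summed level of 8 T cell genes was 3128 and 3130 FPKM in WT and 2960 and 3011 FPKM in Apoe-/- libraries. None of these 8 and none of 8 Tfh genes passed by limma. At an unadjusted p under 0.05, 1 T cell gene was lower, and of the Tfh genes 2 were higher and 1 lower. The T cell gene was Cd28, with a WT mean 1.53 times the Apoe-/- mean. Of the Tfh genes Pdcd1 was the lower, with a ratio of 1.42, and Cxcr5 and Bcl6 the higher, with 0.792 and 0.849. Mzb1, a cochaperone of GRP94 typical of B and plasma cells, was at 17.5 and 19.1 FPKM in WT and at 12.9 and 13.1 FPKM in Apoe-/- libraries (-0.47 ± 0.11, adjusted p = 0.108), and the WT mean was 1.41 times the Apoe-/- mean. Hspa5 and Hsp90b1, for comparison, had ratios of 1.41 and 1.76, and the ratios of the 11 B cell markers ran from 0.809 for Cd72 to 2.82 for Cr2. The part of B cell RNA in the differences of Sdf2l1, Calr and the other ER genes was not tested.

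Plasma cell markers did not move as one. Igj, the joining chain of secreted antibodies, rose from 8.80 and 11.6 FPKM to 26.4 and 28.0 FPKM (log2 difference 1.34, limma adjusted p = 0.0246), a call that ended with no FPKM filter (0.0672). Prdm1 was at 6.09 and 6.32 FPKM in WT and at 6.03 and 6.44 FPKM in Apoe-/- libraries, and Irf4, which activated T cells also express, at 28.7 and 30.5 FPKM and at 19.2 and 18.6 FPKM (adjusted p = 0.0594). Sdc1 was below 1 FPKM in all libraries and Tnfrsf17 was listed at 0 in 2 of them. Pou2af1, which B cells also express, was at 82.4 and 82.6 FPKM in WT and at 57.7 and 64.9 FPKM in Apoe-/- libraries (limma adjusted p = 0.115). Of 7 tested plasma cell markers 1 rose, none fell and the median was -0.19. By unadjusted p under 0.05, 1 was higher and 2 were lower, where 11.6% and 8.27% of all tested genes were. Derl3, which is typical of plasma cells, was at 2.13 and 2.44 FPKM and at 2.42 and 1.64 FPKM. Of the ER genes typical of secretory B cells, Mzb1 thus had lower values, Txndc5 had higher ones, and Derl3 overlapped between the genotypes. Fkbp11, below the filter and untested, was higher in both Apoe-/- libraries than in both WT libraries.

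**Figure D5:**
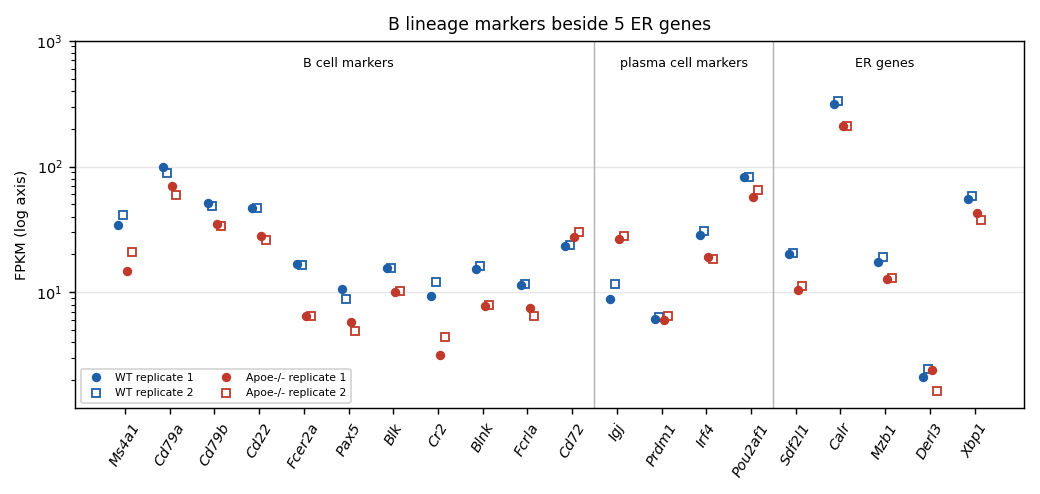
FPKM on a log axis in each library for 11 B cell markers, 4 plasma cell markers and 5 ER genes; WT in blue and Apoe-/- in red, filled circles for replicate 1 and open squares for replicate 2. Cd72 is the only B cell marker with higher values in Apoe-/- libraries, and Igj rises to 26.4 and 28.0 FPKM. Sdf2l1, Calr, Mzb1 and Xbp1 have both Apoe-/- libraries below both WT libraries, and Derl3 overlaps. The ER genes shown are a selection. Txndc5 and the untested Fkbp11, both higher in the 2 Apoe-/- libraries, are not shown.

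Among markers of other cells, some rose. Of 14 tested macrophage, monocyte and neutrophil markers 4 rose (S100a8, S100a9, Retnlg and Vsig4), with a median of 0.27 and sums of 280 and 245 FPKM in WT and 382 and 360 FPKM in Apoe-/- libraries. Of 8 tested CD8 T and NK cell markers Nkg7 rose, with a median of 0.57 and sums of 44.4 and 42.5 FPKM and of 85.6 and 91.8 FPKM. Of 7 plasmacytoid dendritic cell markers Ly6d, which B cells also express, fell, and the median was 0.14. By unadjusted p under 0.05, 7 of the 14, 5 of the 8 and 2 of the 7 were higher, and Ly6d alone was lower. Over all tested genes 11.6% were higher at that level. The Ly6d call ended without either WT library or the FPKM filter (adjusted p = 0.0735 to 0.118), and that of Vsig4 with no filter (0.0945). The part of these cells in the ER gene values was not tested either.

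No member lies on chromosome 7, which holds Apoe. Of the 39 genes, 14 overlap another annotated gene, 6 of them a protein-coding gene of the table. Without a stated strand setting, reads of such pairs cannot be told apart. Rabepk, which overlaps Hspa5, was at 9.18 to 11.5 FPKM, and Mrpl49, which overlaps Syvn1, at 17.1 to 18.0 FPKM. Mis12, which overlaps Derl2, was at 12.6 to 17.0 FPKM, about the level of Derl2 itself, whose values are uncertain for that reason. Sdf2l1 and Calr overlap no other annotated gene.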

How the data were processed

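RNA of Tfh cells was profiled in 4 libraries, 2 WT and 2 Apoe-/-. The deposited values are FPKM per gene symbol, computed by the authors. Per the submitters' processing notes, CASAVA 1.8.2, TopHat2 2.0.13, Cuffdiff 2.2.0 and build mm10 were used. The annotation, strand setting and filters are not stated there. Columns were split on spaces and tabs, since 2 rows hold a space for a tab.

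Genes with a mean of 1 FPKM or more over the libraries were tested as log2(FPKM + 1) with limma 3.58.1 in R 4.3.3 (lmFit, eBayes with a mean-variance trend). The scale understates changes of low genes. A permutation test of 2 against 2 libraries cannot go below p = 0.333 and was not run. The procedure was tested on simulated data with libraries drawn independently and planted changes larger than any difference of the set. That run does not cover changes of the size seen here or links between libraries of equal number. The members and lists were chosen with earlier results of these data known. Full statistics were given for members past the threshold, the 6 with the smallest p and 14 named for their role, and values for the rest. Alternatives varied pseudocount, filter, scaling, variance model, replicate block and the libraries kept. Gene positions are from RefSeq (GRCm38). Of the list symbols outside the set, Fam8a1, Adgre1, Igkc, Iglc1 and Jchain had no row; Emr1 and Igj are older names of Adgre1 and Jchain. Protein sequences were not used here, and 1 B cell marker of the list is not reported here.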

Additional observations from a re-analysis of the deposited data

How the results depend on the processing

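The median difference of the ER set stayed below 0 in all 14 alternatives, and 29 to 34 of the tested genes of the set were below 0. The calls depended on the setting. With no FPKM filter 0 of 39 members were lower (of 16584 genes in all, 41 were lower and 35 higher). Without the mean-variance trend 1 of 38 members was lower. With a mean of 5 FPKM or more, 51 of 8805 genes in all were higher. With 1 library left out, 0 to 6 members were lower and the median ran from -0.34 to -0.24; over all genes 61 to 301 were lower and 54 to 317 higher, and of the other pathway lists 0 to 1 were lower and 0 to 2 higher. The fits with 1 library left out held 38 tested members, 11187 genes in all and 117 genes of the other pathway lists. A lone library was assumed to vary like the other group, and the cause of these shifts was not tested.

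The labels do not say that equal replicate numbers share an animal or day. Deviations from the group means correlated at 0.21 over genes between libraries of equal number, which with 2 pairs does not show pairing. With the replicate block, 22 of the 38 tested members were lower and 1 higher. Of all 11187 tested genes 1776 were lower and 1908 higher, and of 117 genes of the other pathway lists 28 and 11. No call of a gene named above turned in direction in any alternative. The precision is limited by 2 libraries a group and an unknown depth.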
